A study of Homo sapiens with 12 samples.

Results

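Mitochondrial ribosomal proteins are encoded in the nucleus and made by cytosolic ribosomes, and their own footprints in ribosome profiling show how these messages sat on monosomes (a single bound ribosome) and polysomes (several). The set held every gene with a called coding open reading frame (ORF) whose RefSeq symbol begins with MRPL, for the large subunit, or MRPS, for the small subunit, followed by a number. There were 66 such genes, 45 MRPL and 21 MRPS, of 6375 genes with a coding ORF, and 77 protein-coding RefSeq genes carry such a symbol. MRPS30, MRPS31 and MRPL45 had no coding ORF inside the gene. The coding ORFs of MRPL30, MRPS18C, MRPS24, MRPS17, MRPS28, MRPS16, MRPL38 and MRPL12 lay inside several genes or not inside 1 gene alone, and these 8 genes were not counted. After a filter on low counts 65 of the 66 were tested among 4765 genes. MRPS18B, known here only from a 66 nt ORF, did not pass the filter and had 0.8 to 2.5 footprints in monosome libraries and 3.5 to 26.0 in polysome libraries.

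The cells were HEK293, an adherent human embryonic kidney line, and the labels name no introduced allele. Amino acid starved cells spent 1 h in a balanced salt solution with vitamins and serum still present. Serum starved cells spent 2 h in medium without serum, and log phase cells kept full medium with serum. Each condition gave monosome libraries and polysome libraries from pooled gradient fractions, with 2 libraries, A and B, in each of the 6 groups. All lysates held cycloheximide, which freezes ribosomes on messages. The labels do not say that A and B were separate cultures, so p-values measure only the spread between these libraries, which may be technical.

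As background, the mitochondrial ribosome, or mitoribosome, descends from a bacterial ribosome and translates the few messages of the mitochondrial genome, all of them for subunits of the respiratory chain and the ATP synthase. Its RNA comes from the mitochondrial genome, while its proteins are imported from the cytosol. Some of the proteins have bacterial counterparts and others were added in the line leading to mitochondria. Many are short, and a short reading frame has room for few ribosomes at a time.

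Total kept footprints were 354509 to 1204002 in monosome libraries and 2477832 to 7683764 in polysome libraries. Of these, 119947 to 346200 and 1493881 to 5313462 lay in coding ORFs. A tested mitoribosomal gene had a median of 11.4 to 36.7 footprints per monosome library and 287.0 to 870.6 per polysome library. Relative counting noise was therefore larger in monosome libraries. The letter of a library also carried a difference of its own. B minus A deviations correlated between groups over all tested genes with r of 0.161 to 0.866, and with r of 0.770 to 0.866 among the polysome groups. A fit with the letter as a replicate block is therefore given beside the fit without it where they part. Among genes taken as HEK293 markers, VIM, NEFM, NEFL and LIN28B had footprints and PAX2, LHX1 and INA had no coding ORF under their names. Of 10 markers of other cell types only COL1A1 had one, with 0.0 to 3.1 footprints in monosome libraries and 1.0 to 20.0 in polysome libraries.

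The ORFs called in these genes were often not the full annotated coding sequence (CDS). The leading ORF started with ATG in 22 of the 66 genes (33.3%, against 20.2% of all genes with a coding ORF), with AAG in 14, GTG in 9 and AGG in 7. By the caller's classes it was an annotated CDS in 17 genes, a truncated form in 38 and a variant in 11. Its length ran from 48 to 1314 nt with a median of 525 nt. The median was 501 nt for MRPL genes, 594 nt for MRPS genes and 651 nt for all genes with a coding ORF. Lengths below are those of leading called ORFs and not of the full proteins, and 7 genes have 2 called coding ORFs whose footprints were summed. MRPL13, for example, is represented mainly by a 51 nt ORF and MRPL55 by a 48 nt ORF. The caller's own p-value for the leading ORF was at or above 1e-4 in 15 of the 66 genes. It was at or above 0.05 in 6 of them (MRPL27, MRPL28, MRPL35, MRPL36, MRPL43 and MRPS14). Footprints of 34 of the genes could in part come from or be lost to RefSeq pseudogenes of the same symbol, and 12 carry joined gene identifiers in the files.

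Sequence around the annotated transcription start is shown for genes at both ends of the monosome over polysome order, because messages that begin with C and a run of pyrimidines are known as targets of the growth signalling that starvation turns down. Each line holds 30 bases of the RefSeq promoter table (GRCh38.p14), read on the gene's strand, with the first 5 transcribed bases in capitals. MRPL33 and MRPL57 are the genes farthest toward monosomes, and MRPS23 and MRPL24 are among those farthest toward polysomes.
MRPL33: ccgtgccccggaagcAGTTGttgttggttg
MRPL57: ccgcgagacgggtgcGCTTAcgccacggcg
MRPS23: gcttccggttccggtAGCAGctagtcacgc
MRPL24: ggacgctgagggcccATGTGctgaaaatcc
The windows are chr2:27771704-27771733 on the plus strand, chr13:21176643-21176672 on the plus strand, chr17:57850030-57850059 on the minus strand and chr1:156741074-156741103 on the minus strand. None of the 4 begins with C followed by 4 pyrimidines at the annotated start. Of the 59 genes matched to the promoter table, 4 did (MRPL44, MRPL53, MRPS27 and MRPS33), or 6.78%, against 4.6% of 15842 promoters. Within 5 bases of the start 13 genes (22%) had such a run, against 22.1% of all promoters.

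Motifs of general promoter factors were searched on both strands of the same 300 base promoters. CCGGAAGT, the core bound by ETS family factors, was found in 10 of 59 promoters (16.9%), against 6.19% of all. AAGATGGC, from the core bound by YY1, was found in 16 (27.1%), against 3.91% of all. GCGCATGC, from the palindrome of NRF1, a factor known for nuclear genes of mitochondrial proteins, was found in 5 (8.47%), against 4.26% of all. With any base at 1 position, as GCGCNTGC, it was found in 13 (22%), against 16.2% of all, and every match of the first form is also one of this form. The YY1 and NRF1 letters are shortened from longer forms that were searched first and, holding these letters, could match no more promoters, so these shares rest on a choice made with the first search's results known. MRPL27, a gene low in monosomes, has the ETS core at both of the places shown next, in capitals, on the gene's strand.
MRPL27 upstream: cacgcagggcCCGGAAGTagatctcctgat
MRPL27 before the start: cttttcgagaCCGGAAGTgagtgatcgaaa
These are chr17:50373217-50373246 and chr17:50373173-50373202 of GRCh38.p14, on the minus strand. A match describes the letters in the window and says nothing of binding.

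Together the 66 genes held 1.0 to 1.408% of coding footprints in the 6 monosome libraries and 1.306 to 1.715% in the 6 polysome libraries. Amino acid starved, serum starved and log phase monosomes had 1.39 and 1.345%, 1.34 and 1.0%, and 1.408 and 1.36%, in libraries A and B. The matching polysomes had 1.715 and 1.306%, 1.579 and 1.362%, and 1.625 and 1.346%. In each condition library A of the polysomes stood above both monosome libraries. Library B of the polysomes stood below both in amino acid starvation and log phase and above both in serum starvation, so the fractions overlapped. MRPL genes had 2.55 to 3.53 times the footprints of MRPS genes in monosome libraries and 2.28 to 2.70 times in polysome libraries. Genes with a leading ORF under 300 nt held 19.0 to 27.5% of the set's footprints in monosome libraries, against 8.75 to 15.6% in polysome libraries, with no overlap. Much of the monosome share came from MRPL33, MRPL57 and MRPL41. They had 500.4, 155.7 and 170.0 of the set's 4072 footprints in log phase monosome library A. The matching polysome library had 641.4, 212.6 and 902.5 of 86323. The other short genes were not counted apart, and the share of all genes under 300 nt is not given here.

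**Figure D1:**
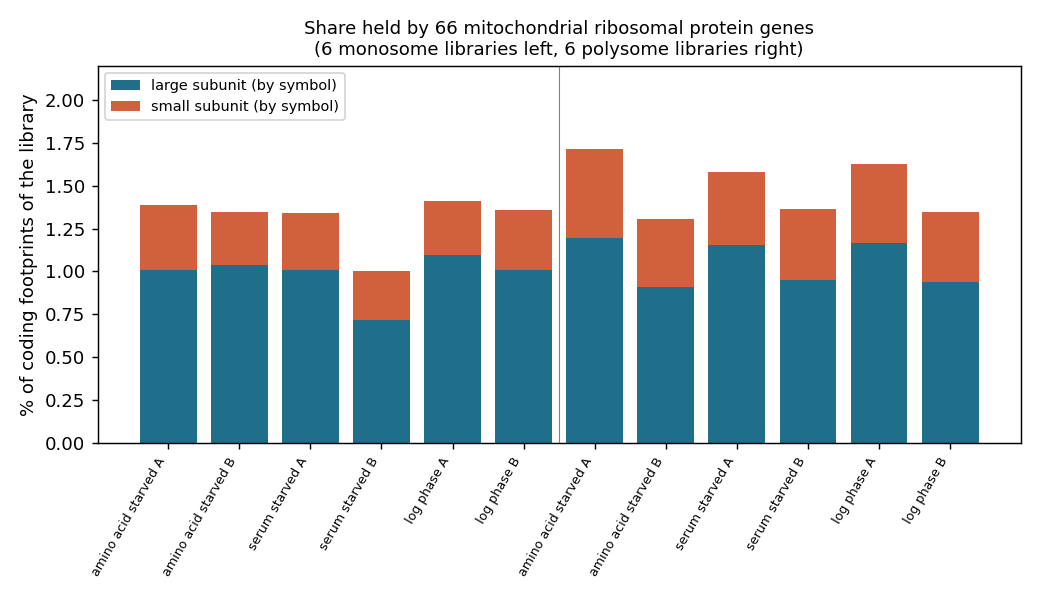
Share of each library's coding footprints (vertical axis, percent) held by the 66 genes, with MRPL genes in blue and MRPS genes in orange above them. The 6 monosome libraries lie between 1.0 and 1.408% and the 6 polysome libraries between 1.306 and 1.715%.

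The first comparison asked how the set divides between monosomes and polysomes over the 3 conditions. Most of the genes lay toward polysomes and a few short ones lay far toward monosomes. Without the block 7 of 65 genes were higher in monosomes and 26 were lower (edgeR quasi-likelihood test, Benjamini-Hochberg adjusted p under 0.05). Over all 4765 genes 17% were higher and 21.8% lower, while the set had 10.8% higher and 40% lower. With the replicate block 11 genes were higher and 34 lower, and over all genes 23.9% and 30.3%. The median log2 monosome over polysome was -0.62 for the set and -0.18 for all tested genes. Each library is scaled to its own coding footprints, so a gene can only be placed against the rest of its own fraction. More message and more ribosomes per message cannot be told apart, since no mRNA libraries were used here.

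Direction was also counted over the pairs of libraries. Of the 65 genes 21 (32.3%) were lower in monosomes in all 6 pairs of 1 condition and letter, against 21.9% of all tested genes, and 8 (12.3%) were higher in all 6, against 16.3%. Another 16 (24.6%) were higher in a single pair, against 13.9% of all tested genes. In 3 pairs 4 (6.15%) were higher and in the other 3 lower, against 11.8%. Some choices of ORFs moved the counts by over 1.5 times. With CDS-type ORFs alone 18 genes could be tested, of which 4 were higher and 3 lower, with a median of -0.19. With ORFs of a caller p under 1e-4 alone 51 could be tested and 11 were lower. Shares over all genes are not given for either choice of ORFs, so these counts have no background beside them. Without library A of the amino acid starved monosomes 4 genes were higher.

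**Figure D2:**
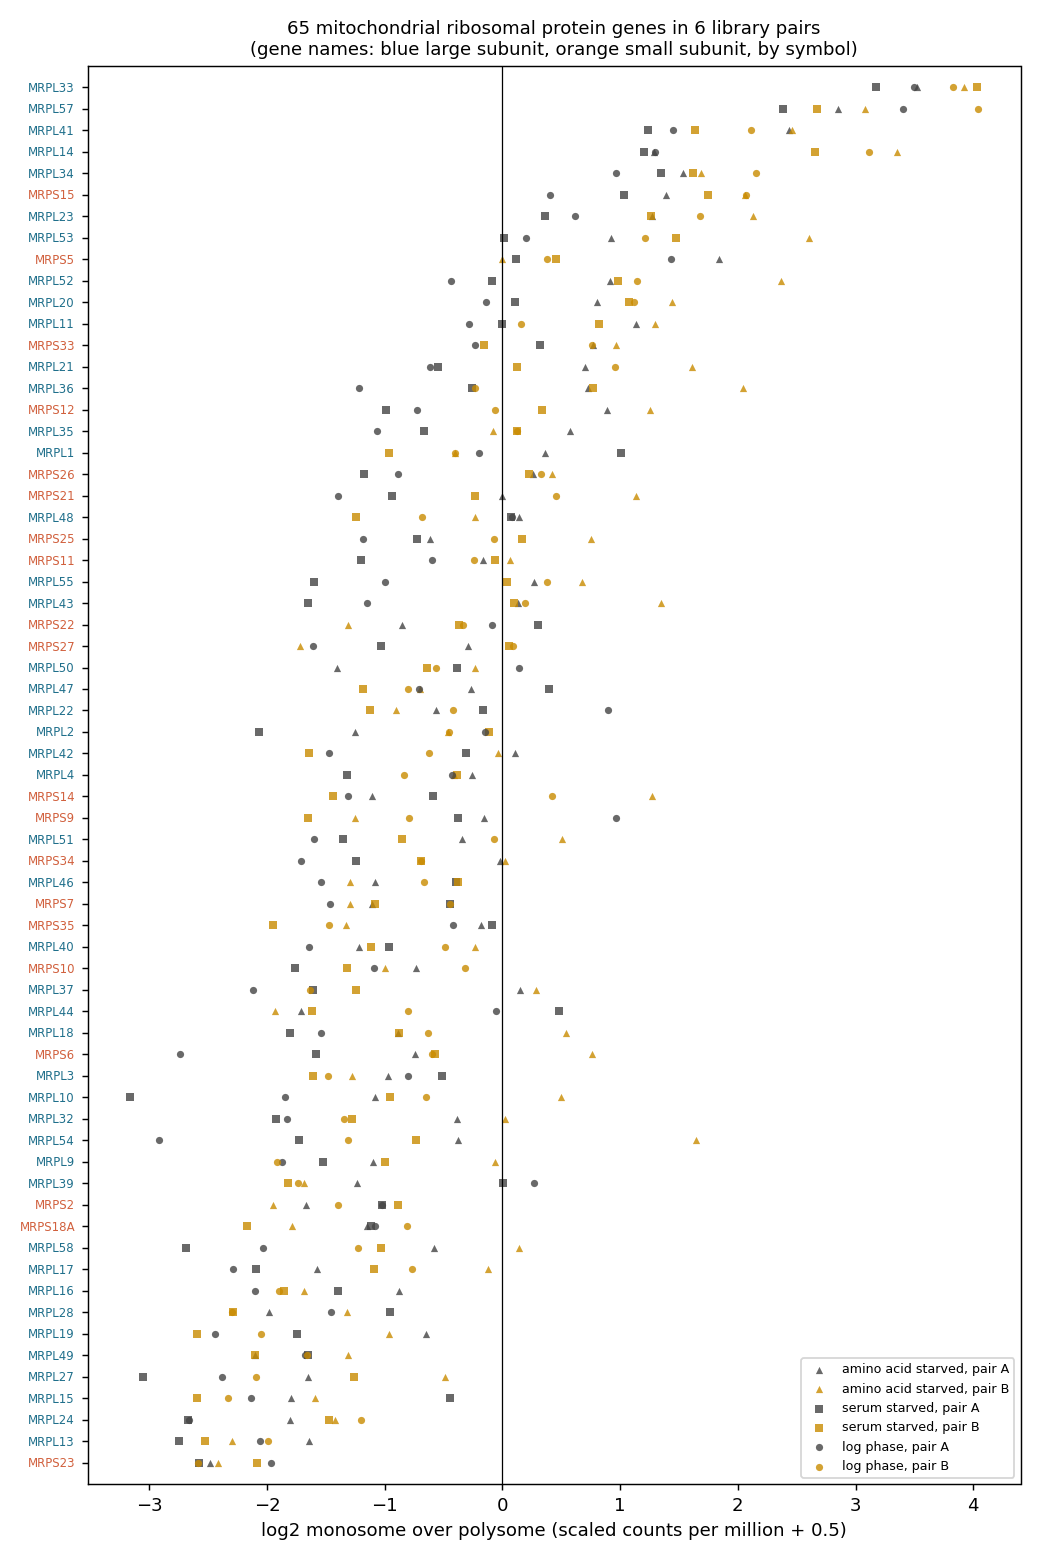
Log2 monosome over polysome of scaled CPM plus 0.5 (horizontal axis) for each of the 65 tested genes, 1 point per pair of libraries of the same condition and letter. Genes run from the most monosome-shifted (MRPL33) at the top to the most polysome-shifted (MRPS23) at the bottom, and in MRPL14 the 3 B pairs (ochre) lie right of the 3 A pairs (grey).

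MRPL33 encodes a very small protein of the large subunit with a bacterial counterpart, and its called CDS of 198 nt spans chr2:27771778-27779482 (hg38, plus strand). Its levels are given as CPM, footprints scaled by TMM to a common library size, here called scaled CPM. It had 964 and 849 scaled CPM in amino acid starved monosomes, 1219 and 618 in serum starved monosomes and 1806 and 834 in log phase monosomes. The matching polysomes had 83.5 and 55.7, 134 and 37.2, and 159 and 58.1 scaled CPM. The lowest monosome library therefore stood well above the highest polysome library. The log2 monosome over polysome was 3.57 (SE 0.435, edgeR adjusted p = 3.57e-05), with 137 to 500 footprints behind each monosome value.

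MRPL57 encodes a short protein that mitochondria added to the large subunit, and its called ORF of 225 nt lies at chr13:21177001-21177225. It had 272 and 261 scaled CPM in amino acid starved, 409 and 155 in serum starved and 564 and 475 in log phase monosomes. The matching polysomes had 37.3 and 30.5, 78.2 and 23.9, and 52.9 and 28.4 scaled CPM. The fractions did not overlap, and the log2 ratio was 3.02 (SE 0.376, edgeR adjusted p = 4.35e-05). RefSeq lists 8 pseudogenes under this symbol, and their part in the counts was not tested.

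MRPL41, another mitochondria-specific large subunit protein with a called ORF of 249 nt, had 457 and 477, 516 and 286, and 614 and 554 scaled CPM in amino acid starved, serum starved and log phase monosomes. Polysomes had 84.1 and 86.2, 219 and 91.6, and 224 and 128 scaled CPM. Again every monosome library was above every polysome library (log2 1.85, SE 0.318, edgeR adjusted p = 0.000571). MRPL14, a conserved protein at the face that meets the small subunit, behaved unevenly. It had 292 to 678 scaled CPM over the monosome libraries, but 234 to 273 in polysome libraries A and 42.6 to 77.9 in polysome libraries B (log2 1.78, SE 0.51, edgeR adjusted p = 0.0135).

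MRPL34, a short conserved protein of the large subunit, had 36.7 to 125 scaled CPM in monosomes and 11.1 to 49.7 in polysomes (log2 1.47, SE 0.405, edgeR adjusted p = 0.0108). The fractions did not overlap within a condition but did across conditions, and its total of 660.0 footprints is the smallest of the tested set. Without library A of the amino acid starved monosomes MRPL14 (log2 1.54, adjusted p = 0.0534) and MRPL34 (1.16, adjusted p = 0.0754) did not pass, nor did MRPL14 without library A of the serum starved monosomes (1.497, adjusted p = 0.0504). MRPS15, a protein that binds the small subunit's RNA early in assembly, was the exception in length, with a called ORF of 768 nt. It had 491 to 819 scaled CPM in monosomes and 117 to 460 in polysomes, without overlap (log2 1.35, SE 0.354, edgeR adjusted p = 0.00846). MRPL23, which lines the exit of the peptide tunnel, also passed (log2 1.08, SE 0.374, adjusted p = 0.0327), although its fractions overlapped in 1 of the 3 conditions. With the block MRPL53 (1.10), MRPL52 (0.83), MRPS5 (0.79) and MRPL20 (0.72) passed as well, with adjusted p of 0.00124, 0.0119, 0.00991 and 0.0186. MRPS5, a small subunit protein near the entry of the message, has the longest leading ORF of the set at 1314 nt.

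**Figure D3:**
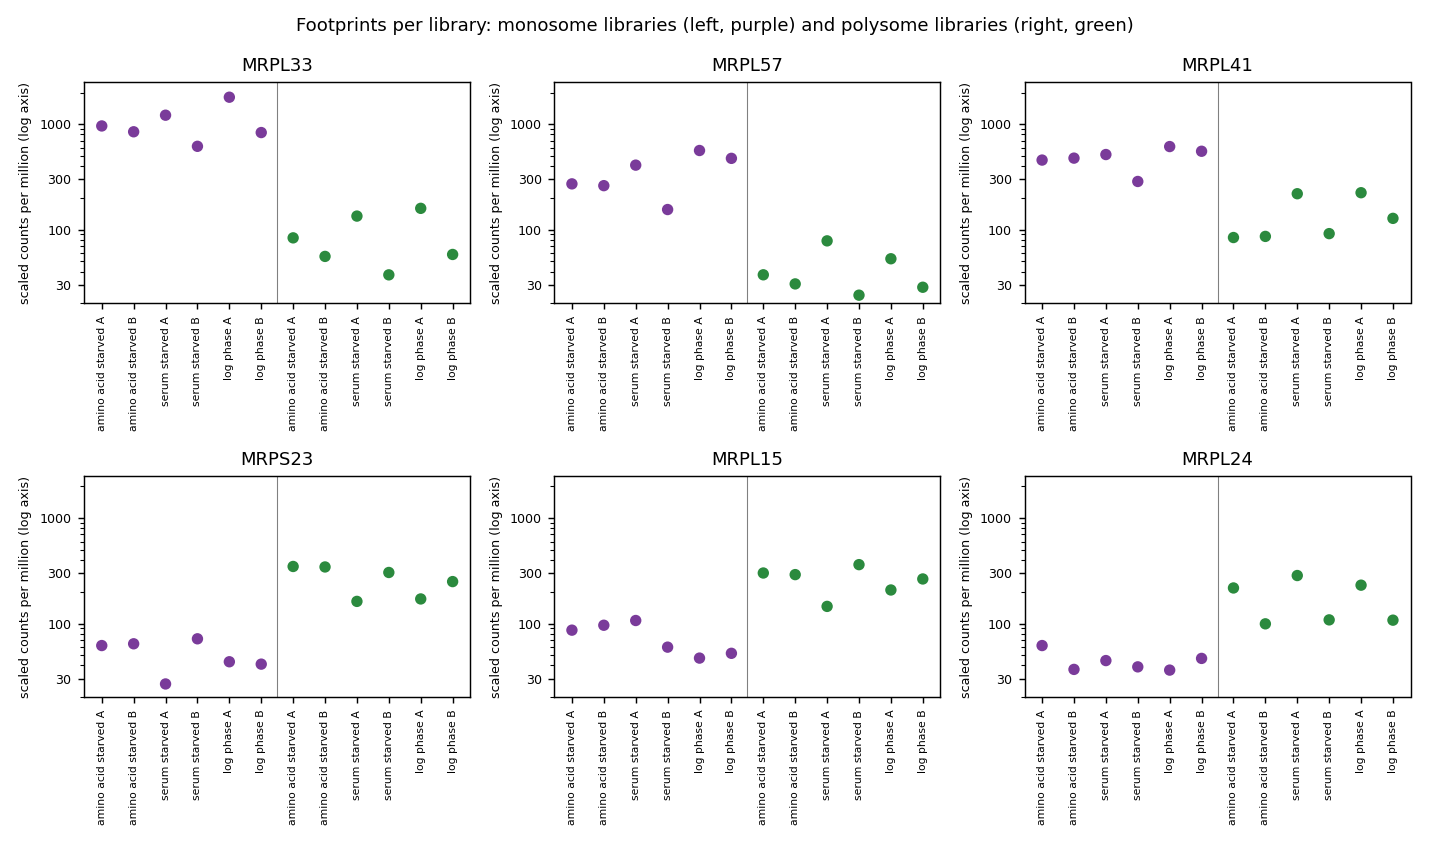
Scaled CPM per library on a log axis for 3 genes high in monosomes (upper row: MRPL33, MRPL57, MRPL41) and 3 low in monosomes (lower row: MRPS23, MRPL15, MRPL24), 1 point per library with monosome libraries left (purple) and polysome libraries right (green). In all 6 genes no monosome point crosses the polysome points.

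At the other end, MRPS23, a mitochondria-specific small subunit protein with a called ORF of 396 nt at chr17:57839783-57849277 on the minus strand, had the lowest ratio. Amino acid starved, serum starved and log phase monosomes had 61.8 and 64.2, 26.7 and 71.6, and 43.4 and 41.2 scaled CPM. The matching polysomes had 348 and 344, 162 and 305, and 171 and 250 scaled CPM. Every polysome library was above every monosome library (log2 -2.30, SE 0.32, edgeR adjusted p = 0.000108). The monosome values rest on 3.1 to 23.7 footprints each.

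MRPL13 and MRPL15 are conserved proteins that bind the large ribosomal RNA. MRPL13 had 80.3 and 55.0, 26.7 and 38.8, and 57.8 and 54.9 scaled CPM in amino acid starved, serum starved and log phase monosomes, against 252 and 273, 182 and 226, and 242 and 220 in polysomes (log2 -2.19, SE 0.28, edgeR adjusted p = 5.3e-05). By the length of its leading called ORF, 51 nt, it is also an exception. Its 2 called ORFs have 228 nt in all, and neither length is that of the full protein. MRPL15, with 810 nt, had 86.5 and 96.3, 107 and 59.7, and 47.0 and 52.1 scaled CPM in monosomes, against 302 and 291, 145 and 362, and 208 and 265 in polysomes (log2 -1.87, SE 0.317, edgeR adjusted p = 0.000502). Neither gene overlapped between the fractions.

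The 7 other places in this order belonged to large subunit proteins. MRPL24, a conserved protein beside the tunnel exit, had 36.1 to 61.8 scaled CPM in monosomes and 99.3 to 285 in polysomes (log2 -1.997). MRPL27, which reaches toward the centre where peptide bonds form, had 22.0 to 73.4 and 95.5 to 229 scaled CPM (log2 -1.81). MRPL16, also near that centre, had 36.1 to 117 and 118 to 216 scaled CPM (log2 -1.63). For the rest the log2 ratios were -1.81 for MRPL49, -1.77 for MRPL19, which helps bridge the subunits, -1.68 for MRPL28 and -1.53 for MRPL17, another protein at the tunnel exit. Their adjusted p ran from 0.000366 (MRPL19) to 0.00888 (MRPL17) in the edgeR fit. Genes entered this order only where the fractions did not overlap within any condition. By that rule all 7 were lower in monosomes in each of the 6 pairs.

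Other well known members gave mixed results. MRPS12, MRPL10, MRPL20, MRPL22 and MRPL47 are named here after their values were seen. MRPS12, the protein of the decoding centre, had a log2 ratio of -0.09 (SE 0.439, edgeR adjusted p = 0.886), and 0.09 with the block or with RLE scaling. MRPL36, a very small conserved protein of the large subunit, had 0.13 (SE 0.389, adjusted p = 0.82, and -0.08 with no filter) and MRPS21, of the small subunit, had -0.33 (SE 0.388, adjusted p = 0.516). The 2 proteins of the factor-binding stalk counted here differed in sign, with MRPL10 at -1.16 (adjusted p = 0.015) and MRPL11 at 0.46 (adjusted p = 0.269). The proteins around the tunnel exit also differed, with MRPL23 at 1.08, MRPL24 at -1.997, MRPL17 at -1.53, MRPL22 at -0.53 (adjusted p = 0.347) and MRPL47 at -0.53 (adjusted p = 0.163, and 0.0472 with the block). MRPL58, a peptidyl-tRNA hydrolase built into the large subunit, was lower in monosomes (log2 -1.37, SE 0.366, adjusted p = 0.00914).

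The subunits were set side by side by symbol and by place in the particle. Among 45 MRPL genes 6 were higher and 19 lower in monosomes, with a median of -0.62, and among 20 tested MRPS genes 1 was higher and 7 lower, with a median of -0.58. Symbols do not always name the subunit, since the product of MRPS18A sits in the large subunit of the mature particle (log2 -1.34, adjusted p = 0.00782). With it counted there, the medians were -0.70 for 46 large subunit genes and -0.48 for 19 small subunit genes, and this difference was not tested. Genes whose leading ORF begins with ATG had a median of -0.53 (21 genes), against -0.75 for other starts (44 genes).

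Mitoribosomal subunits under other symbols were few. Of 4 tested, DAP3, the GTP-binding protein of the small subunit, was higher in monosomes (log2 1.10, SE 0.296, edgeR adjusted p = 0.00958). GADD45GIP1 (-0.47), CHCHD1 (0.35) and AURKAIP1 (-0.31) did not pass. Of 11 mitochondrial translation factors 3 were higher and 1 lower. The release factor MTRF1L had a log2 ratio of 1.30 (adjusted p = 0.00163), MTRF1 had 1.86 (adjusted p = 0.0258) and the inner membrane insertase OXA1L had 3.36 (adjusted p = 0.0106). The OXA1L value comes from a leading ORF of only 156 nt and has an SE of 0.919. With the block the counts were 4 and 3. TACO1, an activator of cytochrome oxidase translation, had -0.88 (adjusted p = 0.0205). Of 15 assembly factors 3 were higher and 5 lower, including the GTPase ERAL1, which binds the small subunit's RNA (-1.68, adjusted p = 0.00203). NOA1 (3.53, adjusted p = 0.00792), another GTPase of assembly, is represented by a 30 nt ORF. Of 2 tested mitochondrial tRNA synthetases RARS2 was higher (1.01, adjusted p = 0.0221). CARS2, with a leading ORF of 39 nt, was not called (0.02, and -0.003 with the block). In amino acid starved against log phase polysomes 0 genes of these lists passed without the block, and with it MPV17L2, an assembly factor of the inner membrane, passed (blocked log2 -1.18, adjusted p = 0.0361). These lists were made with earlier results of the same data known, and their share called stands beside the 38.8% of all tested genes that differed in either direction.

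Longer called ORFs had lower ratios, up to 900 nt. The 10 tested genes under 300 nt had a median log2 of -0.10 (0.08 with the block), the 29 from 300 to 600 nt -0.50, the 18 from 600 to 900 nt -0.91 and the 8 from 900 nt -0.84. All tested genes in the same bins had medians of 0.64, -0.29, -0.55 and -0.20, so the set lay below the common median in each bin. Across the 65 genes Spearman's correlation of length and log2 ratio was -0.287, against -0.12 across all 4765 genes, and these genes share libraries and are not independent replicates. It was -0.385 across MRPL genes and -0.072 across the 20 MRPS genes. Among the 5 shortest MRPL ORFs, MRPL33, MRPL57 and MRPL41 were higher in monosomes, MRPL13 was lower and MRPL55 was not called (-0.41, adjusted p = 0.431). Among the longest, MRPL3 (-1.12), MRPL37 (-1.07) and MRPL39 (-1.26) were lower, and MRPL2 (-0.55, adjusted p = 0.211) and MRPL4 (-0.62, adjusted p = 0.087) were not called without the block. Among small subunit proteins the short MRPS14 (183 nt, -0.69, adjusted p = 0.315) and MRPS33 (237 nt, 0.30, adjusted p = 0.573) were not called. MRPS6, with a leading ORF of 378 nt, was lower (-1.09, adjusted p = 0.0418), but its counts are summed over 2 called ORFs of 2565 nt in all under a joined gene identifier. Whether both ORFs belong to MRPS6 was not tested, so this call is of the sum. Of the 5 longest MRPS35 was lower (-0.97, adjusted p = 0.0275) and MRPS9 was not called (-0.70, adjusted p = 0.217). MRPS2 (777 nt) was lower in monosomes in every library pair. MRPS15 (768 nt) went the other way and was higher, and so was MRPS5 (1314 nt) with the block.

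**Figure D4:**
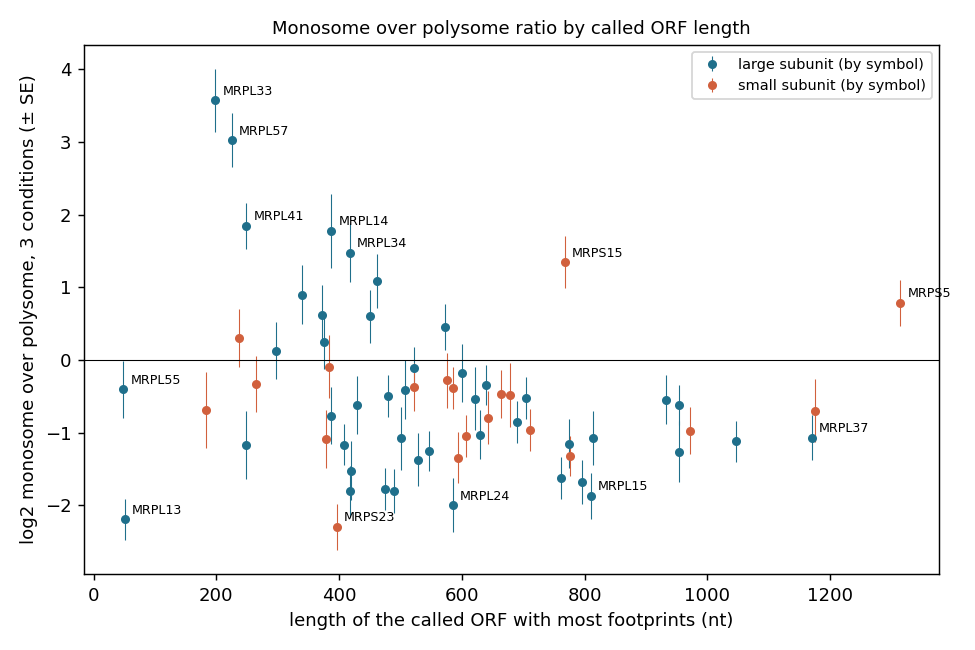
Log2 monosome over polysome over the 3 conditions (vertical axis, bars are SE) against the length in nt of the leading called ORF for 65 genes, MRPL in blue and MRPS in orange. MRPL33, MRPL57, MRPL41 and MRPL14 stand highest at 198 to 387 nt, MRPS15 and MRPS5 stand above 0 at 768 and 1314 nt, and MRPL13 at 51 nt lies low.

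The relation of ratio and length differed with the letter of the libraries. In pairs B the correlation was -0.591 in amino acid starvation, -0.363 in serum starvation and -0.436 in log phase. In pairs A it was -0.309, 0.009 and 0.05 in the same conditions. Within the polysome groups the difference B minus A itself followed length in the 65 genes, with Spearman correlations of 0.58, 0.655 and 0.708 in amino acid starved, serum starved and log phase cells. Genes with a leading ORF of 900 nt or more held 19.6 to 27.0% of the set's footprints in polysome libraries B and 10.2 to 13.4% in polysome libraries A, and the part of this difference in the relation was not tested.

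Within single conditions fewer genes passed. In amino acid starvation 3 genes were higher in monosomes and 4 lower, where 5.56% of all genes were higher and 1.55% lower. With the block 13 were higher and 14 lower, against 15.5% and 13.6% of all genes. In serum starvation 2 were higher and 4 lower (4.3% and 2.54% of all genes), and 6 and 21 with the block (14.4% and 14%). In log phase 2 were higher and 11 lower (6.25% and 5.1% of all genes), and 7 and 21 with the block (16.5% and 17.9%). MRPL33 and MRPL57 passed upward and MRPL13, MRPL49 and MRPS23 downward in each condition without the block. MRPL41 passed in amino acid starvation (log2 2.45, SE 0.564, edgeR adjusted p = 0.0194), but not in serum starvation (1.35, adjusted p = 0.135) or log phase (1.73, adjusted p = 0.0525) without the block. With the block it passed in both, with adjusted p of 0.0112 and 0.00102. MRPS2, a small subunit protein that binds at the junction of head and body, passed in amino acid starvation (-1.80, SE 0.481, adjusted p = 0.0372). These counts rested on few libraries: 0 genes passed in amino acid starvation without any 1 of its 4 libraries, and 11 without serum starved polysome library A. In serum starvation 0 passed without its monosome library A and 1 without B, 3 without its polysome library B or any 1 of the other 4 monosome libraries, and 10 without log phase polysome library A. In log phase 1 passed without its monosome library A, 2 without B, 7 without its polysome library A and 8 without B. The change of the ratio between conditions has its own test, given with the starvations.

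The second question was whether the starvations moved these genes. Serum starvation gave 0 called genes in either fraction, with or without the block in edgeR and in DESeq2. In polysomes 0 of 65 genes reached an unadjusted p under 0.05 in both edgeR fits, where 0.105% of all genes did without the block and 0.986% with it. In monosomes 0 did without the block and 2 with it, where 1.76% and 5.75% of all genes did. Across all genes 0% were called in polysomes in both fits, and in monosomes 0% without the block and 0.021% with it. The median log2 serum starved over log phase was -0.10 in polysomes and -0.13 in monosomes.

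Amino acid starvation gave 0 calls without the block in polysomes in edgeR and in DESeq2, where 6 and 7 of 65 genes reached an unadjusted p under 0.05. Of all 4765 genes 0% passed and 8.63% reached that unadjusted p in edgeR, and the share in DESeq2 is not given here. With the block 3 genes were higher and 6 lower in edgeR's test, where 5.14% of all genes were higher and 4.93% lower. MRPL44, which carries a fold related to double-strand RNA nucleases, had 163 and 229 scaled CPM in amino acid starved polysomes, against 33.8 and 67.6 in log phase polysomes. The groups did not overlap, and the blocked log2 was 2.02 (SE 0.385, adjusted p = 0.00211, against 0.382 without the block). MRPS22, a mitochondria-specific small subunit protein, had 101 and 126 scaled CPM in amino acid starved polysomes, against 38.5 and 48.6 in log phase polysomes (blocked log2 1.38, SE 0.366, edgeR adjusted p = 0.0166). MRPL39, a relative of tRNA synthetases in the large subunit, had 495 and 1105, against 132 and 494 scaled CPM (blocked log2 1.48, SE 0.438, adjusted p = 0.0304). Its lower starved library lies just above its upper log phase library.

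The 6 genes that fell with the block had leading ORFs of 297 nt (MRPL36), 339 nt (MRPL53), 372 nt (MRPL52), 507 nt (MRPL43), 573 nt (MRPL11) and 1170 nt (MRPL37), beside a median of 528 nt over the tested set. MRPL11, of the factor-binding stalk, had 81.1 and 44.6 scaled CPM in amino acid starved polysomes, against 185 and 125 in log phase polysomes (blocked log2 -1.34, SE 0.368, edgeR adjusted p = 0.0193). MRPL52 had 183 and 87.6, against 656 and 208 (blocked log2 -1.58, adjusted p = 0.0283), and MRPL53 had 64.9 and 34.2, against 224 and 68.5 (blocked log2 -1.45, adjusted p = 0.0362). MRPL43 (blocked log2 -1.38, adjusted p = 0.035) and MRPL36 (-1.28, adjusted p = 0.0381) overlapped between the groups. MRPL37 had 245 and 259, against 880 and 427 scaled CPM (blocked log2 -1.29, adjusted p = 0.0352). Leaving out 1 library of either group leaves that group with 1 library, which the fit takes to vary like the other groups, so a loss of calls is partly built in. With the block kept, 4 of the 9 genes still passed without library B of the log phase polysomes (MRPL44, MRPL39, MRPL52 and MRPL53), and 0 without its library A or without either library of the amino acid starved polysomes. All 9 kept their direction. The blocked log2 ran from 1.81 to 2.30 for MRPL44, 1.24 to 1.59 for MRPS22 and -1.42 to -1.14 for MRPL11. MRPL53 came to -0.92 without library A of the log phase polysomes, the one value here that moved by over 1.5 times.

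By length the set split in both letters. Under 600 nt the median log2 amino acid starved over log phase in polysomes was -0.85 in libraries A and -0.49 in libraries B, with 6 and 9 of 39 genes above 0. From 600 nt the medians were 0.39 and 0.15, with 19 and 15 of 26 genes above 0. Spearman's correlation of length and this change was 0.529 in libraries A and 0.352 in libraries B across 65 genes, against 0.373 and 0.264 across all tested genes. In monosomes the same change had correlations of 0.144 and -0.009. There 0 of 65 genes passed in either edgeR fit or in DESeq2, and the median log2 was 0.25. Without the block 1 gene reached an unadjusted p under 0.05 and with it 6 did, where 5.04% and 11% of all genes did. Over all genes 0% passed without the block and 1.03% with it.

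**Figure D5:**
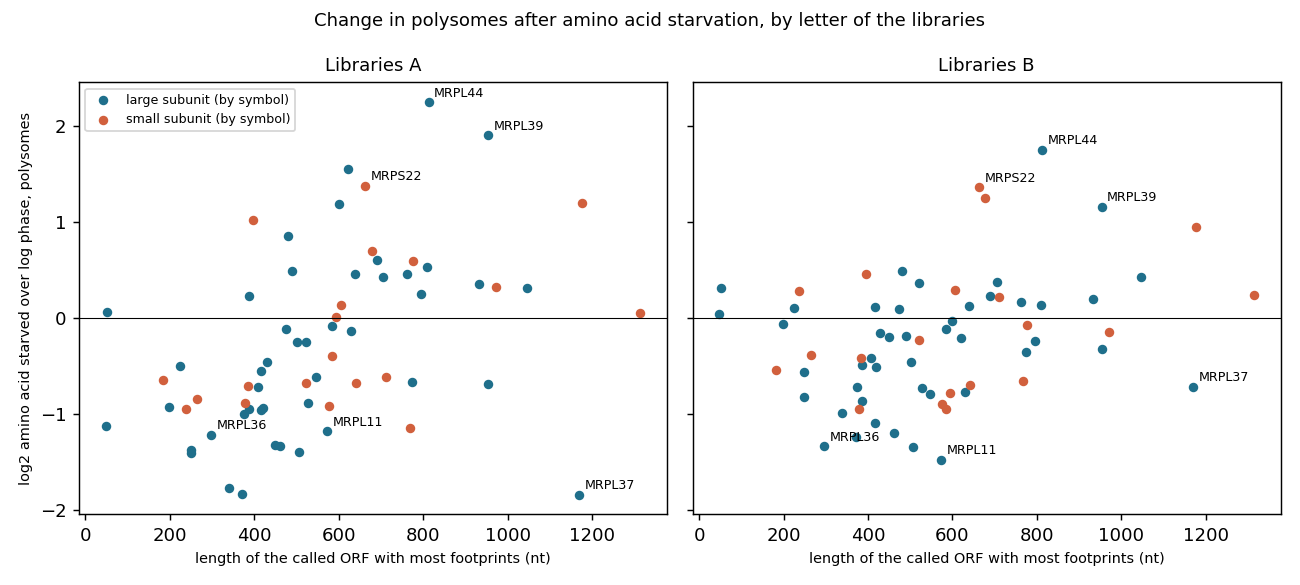
Log2 amino acid starved over log phase in polysomes (vertical axis) against the length in nt of the leading called ORF for 65 genes, in libraries A (left) and libraries B (right), MRPL in blue and MRPS in orange. Most points under 600 nt lie below 0 in both panels, and MRPL44, MRPS22 and MRPL39 lie high in both.

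Amino acid starvation was also set against serum starvation. In polysomes MRPL44 alone passed, and only with the block (log2 1.54, SE 0.38, edgeR adjusted p = 0.0415), where 0.042% of all genes were higher. It had 163 and 229 scaled CPM in amino acid starved and 31.7 and 120 in serum starved polysomes. The blocked log2 was 0.95 (adjusted p = 0.999) without library A of the serum starved polysomes and 2.37 (adjusted p = 0.0012) without B. It did not pass without either library of the amino acid starved polysomes (1.36 without A and 1.84 without B), log phase polysome library A (adjusted p = 0.0512) or serum starved monosome library B (adjusted p = 0.0542). Without the block 0 genes passed in edgeR or DESeq2 (0% of all genes) and 2 reached an unadjusted p under 0.05 in edgeR, where 3.95% of all genes did. In monosomes 0 genes passed in either edgeR fit or in DESeq2, where 0% of all genes passed without the block and 0.231% with it. There 1 gene without the block and 4 with it reached an unadjusted p under 0.05, against 3.44% and 8.92% of all genes. This comparison shares libraries with those against log phase.

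Whether starvation changed the ratio itself was tested as an interaction of fraction and condition. For amino acid starvation against log phase 0 of 65 genes passed without the block in edgeR or DESeq2 (0% of all genes) and 4 reached an unadjusted p under 0.05 in edgeR, where 4.22% of all genes did. With it MRPL54, a mitochondria-specific large subunit protein, passed, where 1.07% of all genes were higher. Its monosomes had 130 and 193 scaled CPM in amino acid starved and 57.8 and 43.9 in log phase cells, while its polysomes had 168 and 61.4, against 439 and 109. The blocked difference of log2 ratios was 3.01 (SE 0.714, edgeR adjusted p = 0.0253). The set's median of this difference was 0.56, with 47 of 65 genes (72.3%) above 0, beside 0.03 and 51.5% over all tested genes. All tested genes of 300 to 600 nt had a median of 0.48 with 69.4% above 0, beside 0.84 and 82.8% for the 29 mitoribosomal genes of that length. For serum starvation 0 genes passed in either edgeR fit or in DESeq2, where 0% of all genes passed without the block and 0.021% with it, and the median was -0.07. An unadjusted p under 0.05 was reached by 0 genes without the block and 1 with it, against 0.818% and 2.43% of all genes.

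Levels per kilobase of called ORF placed MRPS21 first in polysomes. Median scaled CPM per kb over the 6 polysome libraries was 1974 for MRPS21, 1798 for MRPL18, 1621 for MRPL55, 1128 for MRPL51 and 1100 for MRPL21. MRPS21 ranged from 1060 to 4517 and MRPL18 from 761 to 3165, so these neighbours overlap over libraries. The MRPL55 value is divided by a called ORF of only 48 nt. RefSeq lists 9 pseudogenes under the MRPS21 symbol, and their part in the counts was not tested. MRPL18, which binds the structural RNA of the central protuberance, had the most footprints in all, 17703.6. In monosomes MRPL33 came first with a median of 3512 scaled CPM per kb, ahead of MRPS21 with 2012, MRPL23 with 2008, MRPL41 with 1994 and MRPL55 with 1880, while MRPL18 came to 972. In polysomes MRPL33 ranked 37 of 65 and MRPL41 ranked 19.

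Footprints inside the same genes also fell in ORFs of other classes. ORFs of the class the caller names ncRNA held 14.2 ± 4.68% of the genes' kept footprints in monosome libraries and 6.1 ± 0.898% in polysome libraries (SD, n = 6 each), and the ranges of 8.42 to 19.4% and 5.05 to 7.2% did not overlap. Truncated coding forms held 30.6 ± 5.23% and 40.1 ± 2.92%, with ranges of 22.0 to 36.4% and 35.6 to 44.5%. Upstream ORFs held 5.27 ± 2.11% and 4.62 ± 2.01%, with overlap. The upstream ORF with most footprints lies in the MRPL42 gene, has 66 nt and held 4622.7 in all. MRPL18 has one of 36 nt starting with ATG, with 2906.2 footprints. A 9 nt ORF in the MRPL49 gene had 473.9 footprints in amino acid starved monosome library A and 983.5 in log phase monosome library A, both counted in the ncRNA class above, but 0.0 to 11.7 in the other 10 libraries. Without this ORF, a choice made after seeing the data, the ncRNA class held 6.43% in that amino acid starved library and 5.85% in that log phase library, both inside the polysome range, and the separation of the fractions was gone.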

How the data were processed

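The 12 libraries hold ribosome footprints cut from a gel at 17 to 34 nt, with 14 cycles of PCR and a read length of 75 nt, per the labels' protocols. The authors deposited 1 table of 149028 ORFs whose values per library are expected counts, in which a footprint can count in part toward more than 1 ORF. The authors deposited a p-value for each ORF too, used here only to pick a stricter set (p under 1e-4). A column with a score for the start and one for the range, as deposited, were not used. Bowtie 1.0 and hg38 stand in the submitters' processing notes with no role given, and further steps are not given in the sources used here.

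Each codon was counted once, coding classes first and then higher totals, which kept 124829 ORFs, 7031 of them coding. Expected counts were summed per gene and rounded. Genes were named by position from RefSeq (5892 named). PCR reads carry no molecular identifiers, so counts are not independent molecules. Genes were kept with filterByExpr (minimum count 10, minimum total 15), scaled by TMM and fitted over 6 groups with edgeR 4.0.16 in R 4.3.3 (quasi-likelihood, two-sided, Benjamini-Hochberg over 4765 genes per comparison, 12 comparisons). The common biological coefficient of variation was 0.433 and 0.272 with the block.

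The letters A and B served as replicate numbers. No label ties them to the replicate numbers of the samples, and the pairing rests on the correlations of B minus A deviations (r of 0.161 to 0.866). The fit without the block was tested on simulated counts with known changes. These were drawn with the spread of the blocked fit and with no difference between A and B. Such counts cannot show how that fit behaves under the letter difference of the real libraries. The fit with the block was not tested in this way. Named genes were up to 10 per direction among those that passed and did not overlap in any condition, up to 8 per direction and other comparison by p among those called without or with the block, the 5 shortest and longest ORFs of each subunit, the 5 with most footprints, up to 4 of each list and MRPS18A, whose symbol and subunit differ. One gene of the HEK293 marker list is not reported here. The members and lists were chosen with earlier results of these data known. Alternatives were the replicate block, RLE and library-size scaling, DESeq2 1.42.0, no filter, a filter of 50 footprints in 2 libraries, CDS-type ORFs alone, the stricter ORFs, a fit of only the compared groups and leaving out each library.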

Additional observations from a re-analysis of the deposited data

Results flagged for a closer look

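MRPL54 stood out because its monosome over polysome ratio changed between amino acid starved and log phase cells in the test of the difference itself, with the replicate block. The difference of log2 ratios was 3.01 (edgeR adjusted p = 0.0253), and without the block it was 2.94 (adjusted p = 0.999). Leaving out each library in the fit without the block gave 1.60 to 3.80. Its footprints were 20.6 and 41.8 in amino acid starved monosomes and 16.5 and 16.2 in log phase monosomes, so the ratio rests on small counts. Its polysome values differed between the letters as well as between conditions, with 168 and 61.4 scaled CPM in amino acid starved and 439 and 109 in log phase polysomes.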

How the results depend on the processing

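Without a replicate term the counts over the 3 conditions were 7 higher and 26 lower in monosomes. The replicate block gave 11 higher, CDS-type ORFs alone gave 4 higher and 3 lower with a median log2 of -0.19 against -0.62, and ORFs with a caller p under 1e-4 gave 11 lower. Genes with no RefSeq pseudogene under their symbol, a choice made after seeing the data, gave 4 higher and 13 lower of 32, since fewer genes were counted. In amino acid starvation 7 genes were called, against 27 with the replicate block, 11 with DESeq2, 15 with the compared groups alone, 1 with CDS-type ORFs and 2 with the stricter caller p. In serum starvation 6 were called, against 27 with the block, 11 with DESeq2, 1 with the groups alone, 1 with CDS-type ORFs and 0 with the stricter caller p. In log phase 13 were called, against 28 with the block, 1 with CDS-type ORFs and 2 with the stricter caller p. The block gave 9 calls for amino acid starvation against log phase in polysomes, 1 against serum starvation in polysomes and 1 for the ratio against log phase, where the fit without it gave 0. The compared groups alone gave 1 call for amino acid starvation against log phase in monosomes. Shares over all genes are given only for the edgeR fits without and with the block. Whether the other settings moved this set more than the rest of the genes is therefore not shown. Beyond the number of genes counted, the cause of these moves was not tested. Other scalings (RLE, library size alone) and other filters (none, 50 footprints) kept each of these counts within 1.5 times. No gene called over the 3 conditions changed sign under these settings or without a library, while 0 to 6 uncalled genes per setting did, MRPS12 among them (0.09 with the block, -0.09 without). The median of genes under 300 nt also turned with the block (0.08 against -0.10).

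Leaving out each library in turn gave 4 to 10 higher and 20 to 25 lower genes over the 3 conditions, 0 to 11 calls in amino acid starvation, 0 to 10 in serum starvation and 1 to 17 in log phase. It gave 0 calls throughout, from 0 to 0, in the 6 comparisons of starvation within a fraction and in both tests of the ratio. The median ran from -0.79 to -0.47, the small minus large subunit median from 0.02 to 0.31 (0.04 with all libraries) and Spearman's correlation of length and ratio from -0.42 to -0.17. With the block kept, added after seeing the data, 0 to 12 genes were called in amino acid starved against log phase polysomes and 38 to 45 over the 3 conditions. Of the settings tried for single named genes, 507 kept direction and side of the threshold, 11 passed only with the block and 3 lost their call. The side was judged against the fit without the block. The starvation comparisons had no call there, so entries that stayed uncalled count among the 507. Depth limits the monosome side, where the median gene had 11.4 to 36.7 footprints per library.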
